A study of Oryzias latipes with 10 samples.

Results

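The genes described here are the 98 of 24365 medaka (*Oryzias latipes*) genes whose read counts were raised in every *yap* double mutant library. Counts were turned into CPM (the reads of a gene per 1000000 reads counted in genes of its library). A gene was a member when its mean over the double mutant libraries was at least 1 CPM and each of these libraries held at least 1.5 times the highest CPM of the 7 other libraries. Of the 24365 genes, 14357 reached the level of 1 CPM. The members were selected on these very values, so that the excess in the double mutants is a description and not a finding, and no test is drawn from it.

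RNA was sequenced from whole embryos of stage 16, the late gastrula, in 3 genotypes. The double mutants (yap-/- yap1b-/-, YAPd, 3 libraries) lack both *yap* paralogs. The single mutants (yap-/-, YAPs, 3 libraries) carry mutant *yap1*, and the last genotype is the wild type (WT, 4 libraries). Whether single mutant pools held embryos with a mutant copy of *yap1b*, or WT pools any mutant copy, is not given in the sources used here. The alleles are named yap1Δ7pb and yap1bΔ136pb, and iCab is the wild-type strain of the study. Each library is RNA of several embryos that were genotyped one by one and then pooled, so that the spread between libraries is that between pools, and the study names no crosses that belong to a given pool. In whole embryos, fewer cells of a type and less RNA per cell cannot be told apart.

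Yap is the transcriptional co-activator at the end of the Hippo kinase cascade. When the cascade is off or the cell is under tension, Yap enters the nucleus, binds Tead factors and mostly turns genes on, with genes of adhesion and the actin cytoskeleton among its classical targets. In some mammalian cells Yap and Tead also repress genes. Medaka without functional *yap1* are known for a flattened body.

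Gene counts summed to between 22053738 and 38383959 per library. *yap1*, mutated in both lines, had 75.2, 94.0 and 105 CPM in YAPd, 72.5, 96.5 and 85.6 CPM in YAPs, and 304, 287, 295 and 170 CPM in WT 1 to WT 4. *yap1b* had 23.5, 26.5 and 29.9 CPM in YAPd, 50.7, 74.0 and 75.7 CPM in YAPs, and 78.5, 71.3, 79.4 and 83.9 CPM in WT. Every mutant library thus held less *yap1* than any WT library, and every YAPd library less *yap1b* than any other. WT 4 stood apart from WT 1–3 in many genes, *yap1* among them, and its values are given separately throughout. The summed CPM of neural plate (*sox3*, *otx2b*, *en2*), mesoderm (4 genes) and endoderm (3 genes) markers lay between 151 and 825 in every library, so that RNA of these germ layers was present throughout. The sums hide genes that differed in direction. The mesoderm marker *tbxta* had 52.2 to 72.6 CPM in YAPd, 116 to 132 CPM in YAPs, 122 to 134 CPM in WT 1–3 and 67.05 CPM in WT 4. *cdx4*, also of mesoderm, had 302 to 453, 237 to 294.5, 190.5 to 216 and 304 CPM in the same order.

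Most members were weakly expressed genes. The mean CPM over YAPd was under 5 in 54 members, between 5 and 20 in 29 and at least 20 in 15, of which 6 reached 50. Its median over the members was 4.16 CPM in YAPd, 0.859 CPM in YAPs, 0.755 CPM in WT 1–3 and 1.14 CPM in WT 4. All members together took up 1354, 1440 and 1454 CPM in YAPd, 436, 406 and 411 CPM in YAPs, and 362, 349, 336 and 544 CPM in WT 1 to WT 4. The median member had 102.5 reads in its lowest YAPd library and 48.0 reads in its highest other library, and 9 members had fewer than 10 reads in each of the 7.

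The ratio of the lowest YAPd library to the highest other library had a median of 1.85 and ran from 1.51 to 50.4 over the 97 members for which it exists. Counting the 1 member that was at 0 elsewhere, it was at least 2 in 41 members, at least 5 in 10 and at least 10 in 5. In 36 members all YAPs and WT libraries were under 1 CPM. Without WT 4 the same rule would take in 353 genes, and without YAPd 1 it would take in 163, with 98 and 96 of the members among them. With TMM-scaled CPM or DESeq2 size factors 92 of the 98 stayed members, and *haao* (1.46 and 1.46), *rtn1b* (1.49 and 1.48), *phyhd1* (1.39 and 1.36) and *dusp2* (1.49 and 1.47) fell below the 1.5-fold limit under both scalings, with 2 members known by identifier alone.

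**Figure D1:**
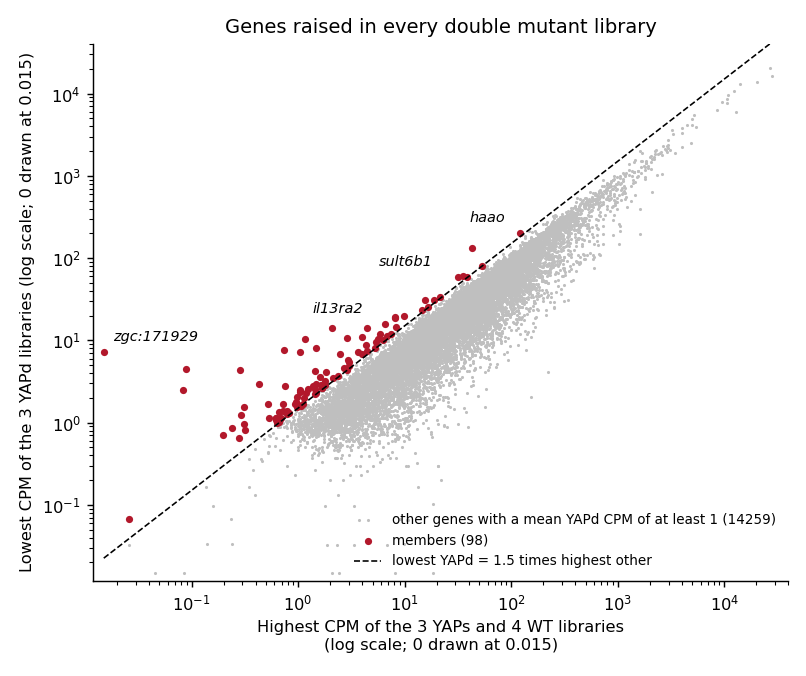
Every gene with a mean of at least 1 CPM in YAPd, by its highest CPM among the 3 YAPs and 4 WT libraries (x axis, log scale) and its lowest CPM among the 3 YAPd libraries (y axis, log scale). The 98 members (red) lie on or above the dashed line of the 1.5-fold rule, mostly at low levels, and *zgc:171929* stands alone at the left edge because its x value is 0.

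Only 22 members could be given a name. For 17 of them the study's tables hold a symbol and for 5 a description, while 76 are known by their Ensembl identifier alone. These tables mostly list genes that the study called changed, so that the named members are not a fair sample of the 98 and their share of any pattern stands beside that of the unnamed members where it matters.

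Complete absence outside the double mutants was found in 1 member. *zgc:171929*, a gene without an assigned function, had 7.30, 8.33 and 8.29 CPM in YAPd and no read in any YAPs or WT library. Taking 3 reads in a library as the limit that a count of 0 allows, its lowest YAPd library was at least 53.6-fold higher than the highest such limit. This limit covers counting error only.

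Next in ratio stood members known by identifier alone, which were picked for description after their values were seen. ENSORLG00000025188 had 6.13, 4.47 and 5.52 CPM in YAPd, 0 CPM in each YAPs library, and 0, 0.0280, 0.0887 and 0 CPM in WT 1 to WT 4. ENSORLG00000004792 had 7.53, 17.4 and 26.8 CPM in YAPd, between 0.363 and 0.741 CPM in YAPs, and between 0.448 and 0.680 CPM in WT. The lowest double mutant library of either gene was far from the other genotypes, but the second gene differed several-fold among the double mutants themselves. ENSORLG00000012918 had 10.5, 22.8 and 20.8 CPM in YAPd, between 0.726 and 1.08 CPM in YAPs, and between 0.699 and 1.17 CPM in WT. ENSORLG00000007342 had 7.30, 39.0 and 31.3 CPM in YAPd, 0.0907, 0.568 and 0.397 CPM in YAPs, and 0.834, 1.03, 0.592 and 0.345 CPM in WT 1 to WT 4. In both genes YAPd 1 was the lowest of its genotype, and still several times above any YAPs or WT library.

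**Figure D2:**
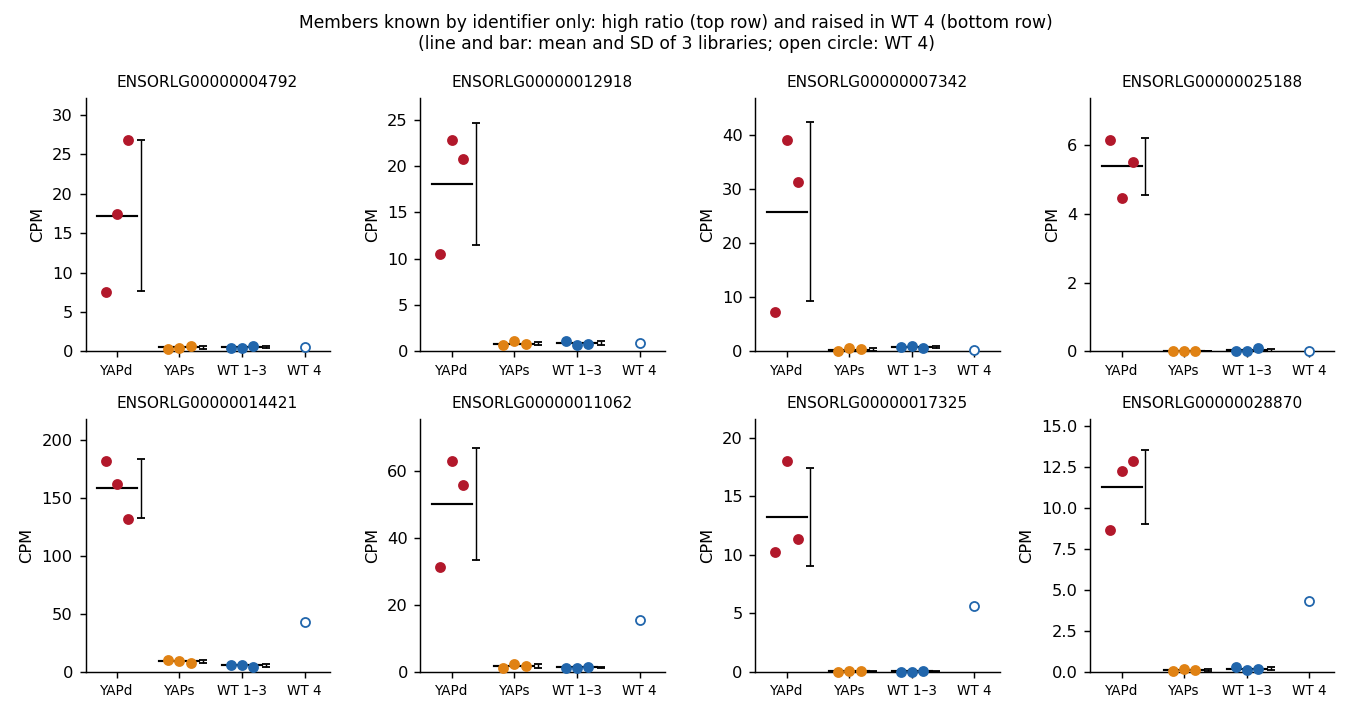
CPM (y axis, from 0) of 8 members known by identifier only, in YAPd, YAPs, WT 1–3 and WT 4 (x axis), with each point a library, lines and bars the mean and SD of 3 libraries and the open circle WT 4. In the top row all 7 YAPs and WT libraries lie near 0, whereas in the bottom row WT 4 lies between the other WT libraries and the double mutants, at 43.0 CPM for ENSORLG00000014421.

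Among the members with a symbol, a cytokine receptor and a kinase had the highest ratios after *zgc:171929*. *il13ra2*, which encodes a receptor of interleukin-13 known in mammals as a decoy, had 20.4, 19.4 and 15.8 CPM in YAPd, 3.63, 6.50 and 4.58 CPM in YAPs, and 1.59, 1.57, 1.30 and 3.11 CPM in WT 1 to WT 4. Its lowest double mutant library was 2.43 times the highest single mutant library, and the single mutants in turn lay above every WT library. *rps6ka2*, a ribosomal S6 kinase that acts below Erk, had 19.4, 47.9 and 59.7 CPM in YAPd, 0.363, 1.22 and 0.979 CPM in YAPs, and 3.31, 3.64, 4.26 and 8.18 CPM in WT 1 to WT 4. The single mutants were here the lowest of the 3 genotypes and the double mutants the highest, with no overlap between any of them. *padi2*, an enzyme that turns arginine into citrulline within proteins, had 13.03, 11.8 and 15.2 CPM in YAPd, 5.35, 4.94 and 3.87 CPM in YAPs, and 4.38, 4.34, 3.67 and 5.90 CPM in WT. In this gene YAPs and WT overlapped.

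Several members with a symbol encode enzymes or carriers, and they are described together without being tested as a group. *sult6b1*, a cytosolic sulfotransferase, had 71.6, 62.8 and 58.5 CPM in YAPd, 31.6, 27.9 and 23.9 CPM in YAPs, and 17.3, 18.9, 16.7 and 29.99 CPM in WT 1 to WT 4. *haao*, which makes the precursor of quinolinate in the breakdown of tryptophan, had 214, 215 and 203 CPM in YAPd, 122, 87.1 and 105 CPM in YAPs, and 101, 94.7, 82.9 and 121 CPM in WT. *slc38a11*, a presumed amino acid transporter, had 63.7, 58.3 and 88.4 CPM in YAPd, 33.0, 38.3 and 33.8 CPM in YAPs, and 30.8, 29.6, 22.8 and 28.8 CPM in WT. All 3 were well expressed in every genotype. In unscaled CPM the means of YAPd were 2.31, 2.02 and 2.00 times those of YAPs, and 2.14, 1.75 and 2.44 times WT 4.

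*phyhd1*, a 2-oxoglutarate-dependent dioxygenase, had 96.5, 79.9 and 96.1 CPM in YAPd, between 35.9 and 53.1 CPM in YAPs, and between 34.9 and 50.2 CPM in WT. *mecr*, which completes the elongation cycle of mitochondrial fatty acid synthesis, had 11.96, 19.0 and 16.9 CPM in YAPd, 7.44, 6.70 and 5.08 CPM in YAPs, and 4.61, 5.15, 4.02 and 5.31 CPM in WT. *sfxn5b*, a carrier of the mitochondrial inner membrane, had 9.63, 10.8 and 9.96 CPM in YAPd, between 4.99 and 5.40 CPM in YAPs, and between 3.64 and 4.87 CPM in WT. Each sfxn5b library of YAPs thus lay above each WT library, by a margin that was small beside the step to the double mutants. *ndufa4*, a subunit of cytochrome c oxidase, was much lower, at 2.57, 2.30 and 2.38 CPM in YAPd, between 0.862 and 1.19 CPM in YAPs, and between 0.495 and 1.14 CPM in WT. *ebpl* had 9.53, 10.8 and 7.48 CPM in YAPd, between 3.45 and 4.42 CPM in YAPs, and between 2.55 and 4.28 CPM in WT.

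The other named members fell into no common group. *nccrp1*, an F-box-associated protein described in catfish as a receptor of cytotoxic cells, had 76.7, 60.7 and 63.8 CPM in YAPd, 16.6, 18.1 and 18.5 CPM in YAPs, and 16.7, 16.7, 17.1 and 35.4 CPM in WT 1 to WT 4. *rtn1b*, a reticulon that shapes the endoplasmic reticulum and is known from neurons, had 40.4, 34.4 and 33.8 CPM in YAPd, 19.9, 19.7 and 21.3 CPM in YAPs, and 12.5, 13.5, 15.0 and 16.6 CPM in WT. *thrap3a*, related to a mammalian factor of transcription and RNA processing, had 10.5, 10.03 and 12.2 CPM in YAPd, 4.85, 4.32 and 4.63 CPM in YAPs, and 3.39, 1.79, 2.25 and 6.28 CPM in WT. The first gene showed no step between YAPs and WT 1–3, whereas the genotypes did not overlap for *rtn1b*, with YAPs between YAPd and WT. *dusp2*, a phosphatase of MAP kinases, was close to the lower limit of the ratio, with 3.70, 2.20 and 2.58 CPM in YAPd, 1.36, 1.45 and 0.821 CPM in YAPs, and between 0.503 and 1.14 CPM in WT. *zbtb7c*, a zinc finger factor that was added to the named genes after its values were seen, had 4.87, 4.81 and 5.26 CPM in YAPd, between 1.77 and 3.01 CPM in YAPs, and between 1.29 and 2.90 CPM in WT.

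**Figure D3:**
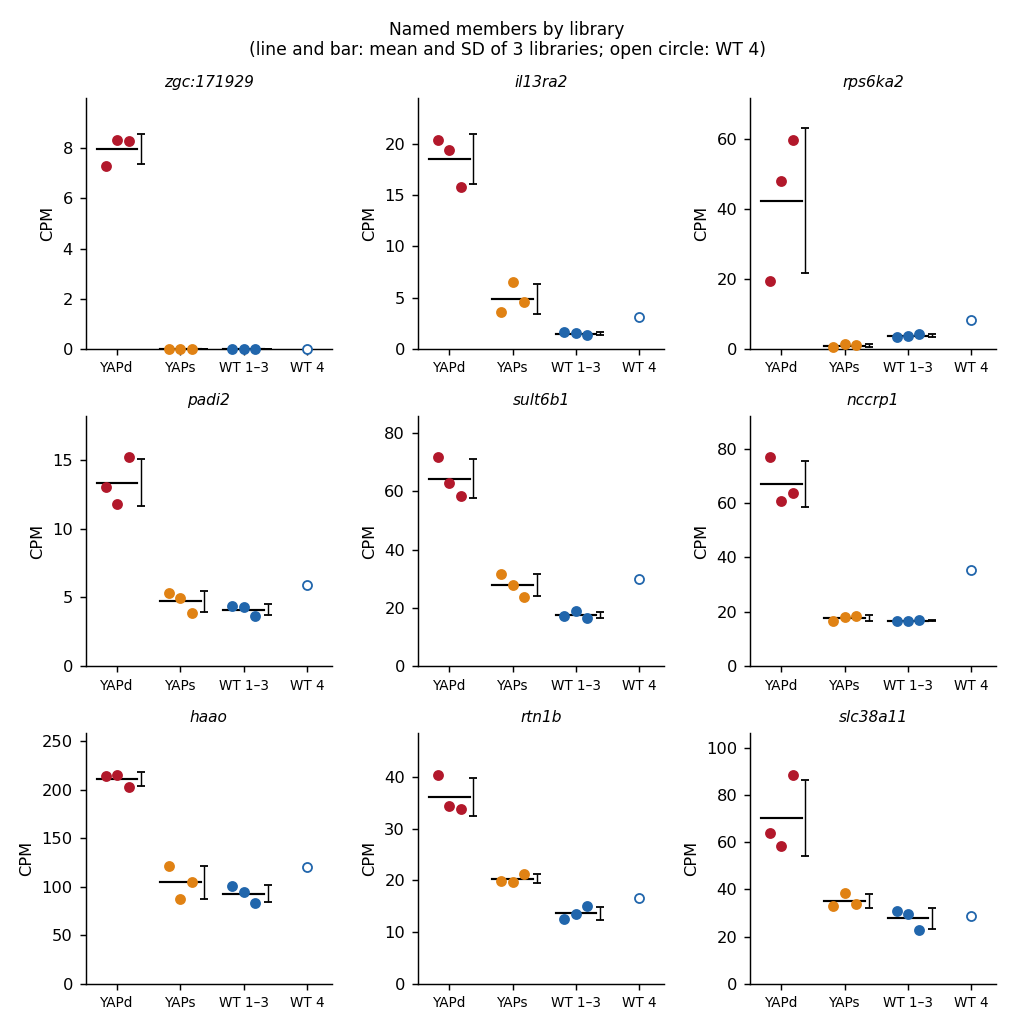
CPM (y axis, from 0) of 9 named members in YAPd, YAPs, WT 1–3 and WT 4 (x axis), with each point a library, lines and bars the mean and SD of 3 libraries and the open circle WT 4. YAPd lies highest in every panel, and *rps6ka2* has its lowest values in YAPs. WT 4 lies above WT 1–3 in every panel but *zgc:171929* and *slc38a11*, for example for *il13ra2* (3.11 CPM), *sult6b1* (29.99 CPM) and *nccrp1* (35.4 CPM).

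A further 5 members had a description but no symbol and were described after their values were seen. Genes such as class I antigens occur in families of similar copies, and whether reads were shared or lost between copies was not examined, so that these levels are uncertain. ENSORLG00000024564, described as a class I histocompatibility antigen, had 14.4, 12.1 and 11 CPM in YAPd, 2.81, 3.64 and 3.79 CPM in YAPs, and 2.08, 1.43, 2.49 and 4.00 CPM in WT 1 to WT 4. ENSORLG00000027779, a poliovirus receptor-like gene, and ENSORLG00000023776, an aerolysin-like gene, had between 2.57 and 3.33 CPM in YAPd, between 0.499 and 1.30 CPM in YAPs, and between 0.414 and 1.38 CPM in WT. ENSORLG00000010182, described as the microsomal glutathione S-transferase 3, had 37.9, 25.8 and 25.6 CPM in YAPd, 12.8, 12.4 and 10.5 CPM in YAPs, and 7.45, 7.75, 6.57 and 16.5 CPM in WT. ENSORLG00000007221, described as the transmembrane protease serine 4, had 2.77, 2.57 and 2.81 CPM in YAPd, between 0.907 and 1.43 CPM in YAPs, and between 0.339 and 1.17 CPM in WT. WT 4 lay above all single mutants in ENSORLG00000024564, ENSORLG00000023776 and ENSORLG00000010182.

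The members at the edge of the rule looked like those just beyond it. The lowest ratios among members with a symbol were 1.51 for *phyhd1*, 1.52 for *dusp2* and 1.52 for *slc38a11*. Just outside were *zgc:92040* (described as proline dehydrogenase 2), with 8.80, 9.21 and 9.40 CPM in YAPd and a highest other library of 5.87 CPM, and *fth1b*, a ferritin heavy chain gene, with 20.8, 19.5 and 18.7 CPM in YAPd and a highest other library of 12.6 CPM. Among genes with a symbol *prdm8*, a factor of the PR domain family, followed with 8.93, 8.27 and 8.16 CPM in YAPd against at most 5.56 CPM elsewhere.

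Whether the members were also higher in single mutants than in WT is the comparison the rule leaves free, since it treats YAPs and WT libraries alike. It was examined over 16513 genes by edgeR's quasi-likelihood test, with p-values adjusted after Benjamini and Hochberg, in a model of genotype with a term shared by WT 4 and the double mutants, so that YAPs were set against WT 1–3. Genes entered the fit by their mean count over all libraries, so that some members entered it through their YAPd reads. *zgc:171929* had no read in YAPs or WT, and 9 of the 98 members had fewer than 10 reads in each of these libraries. Of the 97 members tested, 1 was called higher and 0 were called lower, where 0.0908% of all genes were called higher and 0.6% lower. The called member was *il13ra2*, which rose by 1.78 on the log2 scale in YAPs (SE 0.23, adjusted p = 0.0103 by edgeR). By DESeq2, 8 members were called higher and 1 lower, where 0.751% of all genes were called higher and 1.91% lower, and at an unadjusted p under 0.05 in edgeR 25 were higher and 1 was lower, against 5.09% and 5.29% of all genes. The call of *il13ra2* was lost without WT 1 (adjusted p = 0.0671), without WT 2 (adjusted p = 0.0589) or without WT 3 (adjusted p = 0.0731) in edgeR's quasi-likelihood test, with log2 fold changes of 1.82, 1.84 and 1.69. By the same test it was also lost with genotype alone in the model, which counts WT 4 with WT 1–3 (1.425, adjusted p = 0.0903).

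As a whole the members leaned upward in the single mutants. Their median log2 fold change in YAPs was 0.27, beside 0.02 over all genes tested, and 67 of 97 had a positive value, which is 69.1% beside 53% of all genes. Members with few or no reads in YAPs and WT 1–3 are included in these values, and leaving them out was not tried. Without YAPs 1 the median was 0.16, and with genotype alone in the model, which counts WT 4 with WT 1–3, it was 0.09 with 58.8% of the members positive beside 51.4% of all genes. The lean was larger in the 22 members with a symbol or description, whose median was 0.62, than in the others, whose median was 0.18, and those with a symbol or description were named from the study's tables of changed genes. In CPM every YAPs library lay above each of WT 1–3 in 27 members, which is 27.6% beside 8.62% of the 14357 genes, and 14 of the 76 unnamed members were among them (18.4%). The opposite order, with every YAPs library below each of WT 1–3, was found in 3 members, or 3.06% beside 12% of the genes.

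With WT 4 taken in as well, the single mutants stood above all 4 WT libraries in 8 members, against 2.75% of the genes, and below all 4 in 1, against 6.42% of the genes. The 1 member below was *rps6ka2*. Its value in YAPs on the log2 scale was −2.01 (SE 0.42, adjusted p = 0.0811 by edgeR), which missed the threshold, and DESeq2 gave an adjusted p of 9.5e-05. Members with positive values that also missed the threshold included *rtn1b* (0.65, SE 0.15), *sult6b1* (0.75, SE 0.18), *thrap3a* (0.98, SE 0.24), *ndufa4* (0.91, SE 0.25) and *dusp2* (1.27, SE 0.35), all log2 fold changes in YAPs, with adjusted p between 0.104 and 0.201 by edgeR's quasi-likelihood test. By DESeq2 the adjusted p was 0.00645 for *rtn1b*, 0.0143 for *sult6b1* and 0.00902 for *thrap3a*, and *ndufa4* (0.164) and *dusp2* (0.0818) missed the threshold. *nccrp1* (0.15, SE 0.14), *haao* (0.26, SE 0.18) and *padi2* (0.28, SE 0.21) lay nearest to 0 among the members with a symbol and reads in these libraries, and their adjusted p by the same test was between 0.626 and 0.707. With genotype alone in the model *nccrp1* had −0.22.

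**Figure D4:**
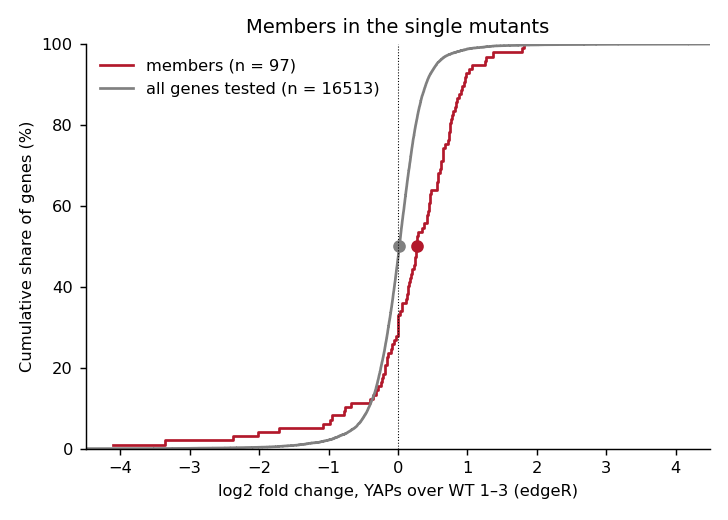
Cumulative share of genes (y axis, percent) by log2 fold change of YAPs over WT 1–3 from the edgeR fit (x axis), for the 97 members tested (red) and all 16513 genes tested (grey), with points at the medians. The curve of the members lies to the right over most of its length, with medians of 0.27 and 0.02. Some members lie far to the left, down to −4.11 (SE 2.18) for ENSORLG00000028935. That value rests on 7 reads in WT 2, with no read in YAPs, WT 1 or WT 3. The grey curve includes the members, and some members entered the fit through their YAPd reads.

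Against WT 4, all 97 members tested were higher in the double mutants, as the rule demands. The quasi-likelihood test of edgeR (p adjusted after Benjamini and Hochberg) called 26 of them, beside 0.285% of all genes called higher, and nothing is read from this count because these libraries chose the members. The count was 41 without YAPs 1 (beside 0.549% of all genes called higher) and 14 without YAPd 2 (beside 0.139%).

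WT 4 was high among the WT libraries in many members. It lay above each of WT 1–3 in 68 members, or 69.4% beside 42.5% of the 14357 genes, and held at least 1.5 times the highest of them in 37, or 37.8% beside 9.63%. Below each of WT 1–3 it lay in 10 members, or 10.2% beside 39.9%. The rule sets WT 4, with the other YAPs and WT libraries, against YAPd, so that nothing is read from these shares. At least 5 times the highest of WT 1–3 was seen in 8 members (0.808% of the genes), all of them without a name. ENSORLG00000014421 had 182, 162 and 132 CPM in YAPd, 10.1, 9.74 and 7.81 CPM in YAPs, 5.99, 6.26 and 4.29 CPM in WT 1–3 and 43.0 CPM in WT 4. ENSORLG00000011062 had 31.2, 63.0 and 55.8 CPM in YAPd, 1.04, 2.27 and 1.75 CPM in YAPs, 1.12, 1.23 and 1.57 CPM in WT 1–3 and 15.6 CPM in WT 4. The mean of YAPd was 17.2 and 29.6 times that of YAPs in these 2 members, and 3.69 and 3.21 times WT 4.

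In ENSORLG00000017325 WT 4 stood at 197 times the mean of WT 1–3. It had 10.3, 18.1 and 11.4 CPM in YAPd, at most 0.0568 CPM in YAPs, at most 0.0592 CPM in WT 1–3 and 5.59 CPM in WT 4. ENSORLG00000028870 had 8.66, 12.2 and 12.9 CPM in YAPd, at most 0.142 CPM in YAPs, at most 0.287 CPM in WT 1–3 and 4.31 CPM in WT 4. Both genes were thus close to silent in 6 libraries and read in the other 4, WT 4 among them. Of the 8 members with such a WT 4, 1 had every YAPs library above each of WT 1–3. That order was found in 8.62% of the genes, whatever their WT 4. In 23 of the 27 members with that order WT 4 lay above each of WT 1–3. Over the genes of any order the share was 42.5%, and the share among genes with that order is not given here. WT 4 was at least 1.5-fold above in 15 of the 27. That order and a WT 4 at least 1.5-fold above were thus found together in 15.3% of the members, beside 1.98% of the genes. The labels do not say how WT 4 differs from WT 1–3, and the part of such a difference in the members was not tested.

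The double mutant libraries were not uniform. The highest YAPd library held a median of 1.42 times the lowest over the members and 1.34 times over the 14357 genes, and at least 2 times in 18 members, or 18.4% beside 14% of the genes. YAPd 1 was the lowest of the 3 in 35 members, or 35.7% beside 51.4% of the genes. YAPd 2 was the lowest in 31 (31.6% beside 19.5%) and YAPd 3 in 32 (32.7% beside 29.1%). The rule asks that the lowest YAPd library pass the limit, so that nothing is read from these counts. *rps6ka2*, ENSORLG00000007342 and ENSORLG00000004792 were among the 5 members with a spread of at least 3 times (5.1% beside 4.34% of the genes). ENSORLG00000029519 spread most, with 0.0666, 2.57 and 1.01 CPM in YAPd, and rests in YAPd 1 on 2 reads, against 1 read in WT 1 and none in the other 6 YAPs and WT libraries.

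Only members with a symbol or description could be placed on the genome. A RefSeq position on the assembly ASM223467v1 was found for 20 members, on 15 chromosomes. No placed member lay within 2 Mb of *yap1* (chromosome 13, 6489854 to 6520557) or *yap1b* (chromosome 14, 12999434 to 13012139). The share of all placed genes that lie so near was not computed, so that nothing is read from this absence. The nearest were ENSORLG00000007221, 8.64 Mb from *yap1* (chromosome 13, 15140405 to 15152023), and *nccrp1*, 10.8 Mb from *yap1b* (chromosome 14, 2188837 to 2192977). *mecr* (chromosome 16, 22822132 to 22824701) and *thrap3a* (chromosome 16, 23486555 to 23523516) were the closest pair, 0.682 Mb apart, followed by *zbtb7c* and *phyhd1* on chromosome 12 at 1.43 Mb. The positions of the other 78 members were not analysed here.

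Of 298 genes on 16 lists of known gene groups, 89 could be matched by symbol, mostly genes that the study called changed, and 6 members were on a list. The lists were chosen with earlier results of these data known, and nothing is read from these counts. The 6 members were *ndufa4* and *sfxn5b* of the mitochondrial and amino acid genes, *sult6b1* of glutathione and xenobiotic metabolism, *il13ra2* of immunity, *rtn1b* of the nervous system and *dusp2* of MAPK feedback. No member was among the 13 matched Yap and Tead targets, of which 6 were called lower in YAPd and 6 lower in YAPs, or among the 9 matched Hippo pathway genes, of which 5 were called lower in YAPd and 3 lower in YAPs. Of all genes 2.02% were called lower and 0.285% higher in YAPd, with WT 4 as the only WT library of that comparison. In YAPs 0.6% of all genes were called lower and 0.0908% higher. Of 5 matched mitochondrial and amino acid genes 1 was called higher in YAPd and none in YAPs. Of 6 matched immune genes 2 were called higher and 1 lower in YAPd, and 1 higher and 1 lower in YAPs, by edgeR's quasi-likelihood test. No member was among the 7 matched genes of p53 and apoptosis, the 9 of autophagy or the 3 of iron and redox.

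Marker levels of several cell types differed between the genotypes. The ionocyte factor *foxi3b* had between 17.4 and 23.6 CPM in YAPd, between 11.5 and 14.4 CPM in YAPs, between 1.18 and 1.95 CPM in WT 1–3 and 8.21 CPM in WT 4. The 3 matched hatching gland markers summed to between 216 and 256 CPM in YAPd, between 153 and 214 CPM in YAPs, between 97.0 and 112 CPM in WT 1–3 and 102 CPM in WT 4, most of it from *agr1* (162 to 196 CPM in YAPd, 114 to 158 CPM in YAPs, 62.7 to 71.9 CPM in WT 1–3), while *cd63* overlapped between YAPd and YAPs. The 2 matched germ cell markers (*ddx4* and *ca15b*) went the other way, with between 55.7 and 74.5 CPM in YAPd, between 158 and 206 CPM in YAPs, between 257 and 264 CPM in WT 1–3 and 241 CPM in WT 4. *ca15b* had 29.7 to 34.6 CPM in YAPd, 122 to 151 CPM in YAPs and 192 to 200.4 CPM in WT 1–3, without overlap, whereas *ddx4* overlapped between YAPd (26.0 to 39.8 CPM) and YAPs (36.7 to 54.4 CPM) and between YAPs and WT 4 (48.9 CPM). The 3 matched epidermis markers summed to between 294 and 305 CPM in YAPd, between 301 and 346 CPM in YAPs, between 421 and 428 CPM in WT 1–3 and 503 CPM in WT 4, and in this sum the mutants overlapped. They overlapped for *dlx3b* and *tfap2a* too, but not for *tp63* (35.4 to 40.25 CPM in YAPd, 49.1 to 57.8 CPM in YAPs). The mutants also overlapped for *krt18a.1* of the enveloping layer, with 336 to 489 CPM in YAPd, 396 to 541.5 CPM in YAPs, 587 to 630 CPM in WT 1–3 and 669 CPM in WT 4. The part of these cell types in the members was not tested, and no blood or immune marker was matched that could be set beside *il13ra2*.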

How the data were processed

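RNA-seq of whole stage 16 embryos was analysed from 1 table of raw counts per gene as deposited by the authors, for 4 WT, 3 YAPs and 3 YAPd libraries. Per the paper's methods, reads were trimmed by 12 bases (Trimmomatic) and likely rRNA reads were taken out (sortmerna). The rest were mapped (HISAT2) to the medaka genome and counted per gene (HTSeq) on Ensembl release 99, with a mapping quality of at least 60. For its own comparison of genotypes the paper also corrected potential batch effects with ComBat, and its methods name no batches. ComBat was not applied here. The submitters' processing notes also name SAMtools and DESeq2. The 5 summary lines of the counter were left out of library sums (reads in no gene 10.6% to 11.3%, ambiguous reads 7.94% to 9.86% of those counted). Whether counting used strand is not given in the sources used here.

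CPM were computed with pandas 2.3.3 and the rule applied as stated in the results. Counts were tested with edgeR 4.0.16 (R 4.3.3) by the quasi-likelihood test, with TMM, a mean count of at least 10 and p-values adjusted after Benjamini and Hochberg over every gene in the fit. This test returns no SE, and each SE given is the absolute log2 fold change divided by the square root of the F value of the test. The model held genotype and a term for WT 4 with the double mutants, which rests on expression values of the libraries and on no label. The term leaves WT 4 as the only WT for the double mutants, assumed to vary like the other libraries. Alternatives were other limits and scalings for the rule, and DESeq2 1.42.0, RLE, no filter, genotype only, the libraries of the contrast only, a replicate block and leaving out each library for the fit. Pools are the replicates, so that p-values measure the spread between pools.

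The members, lists and alternatives were chosen with earlier results of these data known. Symbols and descriptions came from the study's tables, for 2415 genes, and positions from RefSeq by gene number. Named were members with a symbol among the 12 highest ratios with a mean of at least 5 CPM in YAPd, the 8 highest means, members on lists, members near *yap1* or *yap1b*, members called in YAPs, members at 0 elsewhere, and those on both sides of the 1.5-fold limit. CPM are not divided by gene length and are compared between libraries only.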

Additional observations from a re-analysis of the deposited data

Results flagged for a closer look

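In 22 members with a symbol or description, the 4 WT values were examined for 1 library far from the rest by Dixon's criterion. It flags about 1 in 20 groups by chance where the 4 libraries vary alike. WT 4 was such a library in 6 of the 22 members, always as the highest. It had 3.11 CPM of *il13ra2*, 29.99 CPM of *sult6b1*, 35.4 CPM of *nccrp1*, 1.14 CPM of *dusp2*, 1.24 CPM of ENSORLG00000027779 and 16.5 CPM of ENSORLG00000010182. Over all 98 members 20 met this criterion, 18 of them with WT 4 as the high library. The share of all genes that meet it was not computed. WT 4 lay above each of WT 1–3 in 42.5% of the 14357 genes and below each in 39.9%. Among the members it lay above each in 69.4% and below each in 10.2%. WT 4 thus stood apart well beyond the members, though mostly upward in them, and the flags are not read as a trait of the members.

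*rps6ka2* differed in direction between the mutants, with a log2 fold change in YAPs of −2.01 from the edgeR fit, where every double mutant library lay above every WT library and every single mutant library below. The difference was not tested, because the rule that chose the members fixed its upper side.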

How the results depend on the processing

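The rule gave 224 genes with a lower fold limit, 41 with a limit of 2 and 44 with a minimum of 5 CPM, and 97 to 115 with the other minimum, the other scalings or 1 count added. Without single libraries it gave 98 to 353. Members called higher in YAPd numbered 50 by DESeq2 (1.14% of all genes called higher), 95 with genotype only (11%) and 14 to 41 without single libraries (0.139% to 0.549%). Fewer were called with the libraries of the contrast only, which hold WT 4 as the only WT library. In YAPs, 8 were called higher and 1 lower by DESeq2 (0.751% and 1.91% of all genes), and 0 higher with genotype only (0.0363%). Without single libraries 0 to 1 were called higher (0.0122% to 0.139% of all genes) and 0 to 1 lower (0.139% to 0.902%). The median log2 fold change of the members in YAPs was 0.09 with genotype only and 0.16 to 0.36 without single libraries. With a replicate block, which sets both mutants against WT 1–3, 98 members were called higher in YAPd (22.4% of all genes). In YAPs 2 were then called higher and 1 lower (0.0788% and 0.552% of all genes), and the median was 0.24. The labels do not pair the numbers, and same-numbered WT and YAPs libraries deviated together with r of 0.0633, −0.0277 and 0.194. Values in YAPs were recomputed for 19 named members, 16 of which had been picked for an unadjusted p under 0.05. Of 304 such values 1 changed sign (*nccrp1*, −0.22 with genotype only), 9 were called only there and 4 (*il13ra2*) lost the call, with adjusted p of 0.0589 to 0.0903 by edgeR's quasi-likelihood test. Of 273 ratios of named members, 23 moved by more than the spread among YAPd. The causes were not tested. WT 4 alone stands for WT beside the double mutants, so that leaving it out gave no YAPd value, and depth limits members under about 10 reads in WT.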
